A study of Canis lupus familiaris with 81 samples.

Results

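Canine osteosarcoma was set jointly against kidney, spleen and liver, to find the probes that separate the tumours from all of these tissues and not from 1 of them alone. The comparison used 80 of the 81 libraries of the series, chosen by the tumour number or tissue name in each title: 68 regions of 24 tumours, and 12 control regions, 4 from each tissue. The remaining library was a no-template control, a reaction without tissue. Regions were summed to 1 sample for each of the 24 tumours and 1 for each of the 3 tissues, so 27 summed samples were compared.

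The tumours were primary appendicular osteosarcomas, bone cancers of the limbs, from pet dogs in a clinical trial, and all specimens lay on 2 tissue microarrays, slides that carry small pieces of many specimens. RNA was measured with the GeoMx Digital Spatial Profiler and its Canine Cancer Atlas probe panel, in which probes bound to the section release a DNA tag that is sequenced and counted. Each tumour had at least 1 region on each array, with 4 regions in 10 tumours and 2 regions in 14. The control tissues are named only in the titles, while the tissue field of every library reads osteosarcoma, and nothing more is said of them. Age, sex, breed and treatment are not given in the sources used here, and neither is the dog that each control tissue came from. Whether the 24 tumour numbers are 24 dogs is likewise not stated, and each number was taken as 1 tumour.

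Osteosarcoma is a tumour of bone-forming cells, which make and secrete the collagen-rich matrix that mineralises into bone. Kidney is built mainly of tubules that reabsorb filtered solutes, liver of hepatocytes that secrete most plasma proteins, and spleen of lymphoid tissue and blood-filled pulp. None of these organs makes bone matrix in health. The files list 2010 probes by identifier and do not pair them with genes, and 0 of the identifiers matched the gene table used here. Probes are therefore given by identifier, without a gene or a function, and neither the tumour label nor the tissue labels were checked against marker genes. In tissue regions, fewer cells of a type and less RNA per cell cannot be told apart.

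The total count ranged from 73371 in tumour 1403 to 2351300 in tumour 610, with a median of 534000. It was 934910 in kidney, 820810 in spleen and 609300 in liver, so the 3 tissues lay inside the range of the tumours. The 10 highest probes of a tumour held 19.1% to 71.8% of its counts. In kidney they held 12.4%, in spleen 11.9% and in liver 32.8%. Levels below are in CPM, the counts scaled to a fixed library total, with that total corrected by TMM, a scaling that assumes most probes are alike between samples. Because the correction differs between samples, a CPM value is not the plain share of counts.

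Against the mean of the 3 tissues, 196 probes were higher and 314 were lower in the tumours (edgeR quasi-likelihood test, adjusted p under 0.05). These are 9.75% and 15.6% of the 2010 probes tested. The higher probes moved further, with a median log2 fold change of 1.69 (quartiles 1.18 and 2.75). The lower ones had a median of -0.68 (quartiles -0.97 and -0.59). The spread in this test came from the 24 tumours, and each tissue, being 1 sample, was assumed to vary as the tumours do. Variation of a tissue between dogs is therefore not in the test.

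The 2 directions sat at different levels. Of the 503 probes with the highest mean level over all samples, 33.4% were called higher and 5 probes lower. Of the 503 with the lowest mean level, 0 were called higher and 43.7% lower. Those 503 probes averaged 6.32 log2 CPM over the tumours, with single tumours from 5.99 to 6.73. Their mean in the tissues was 6.82 for kidney, 6.74 for spleen and 7.09 for liver. The highest tumour and spleen were nearly level. The level was a mean over 27 samples of which 24 are tumours. Probes low in tumours are therefore favoured among the lowest 503, and probes high in tumours among the highest 503. These values and the shares of higher and lower calls by level are a description. Non-specific background was not subtracted, and its part in the lower calls was not tested.

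**Figure D1:**
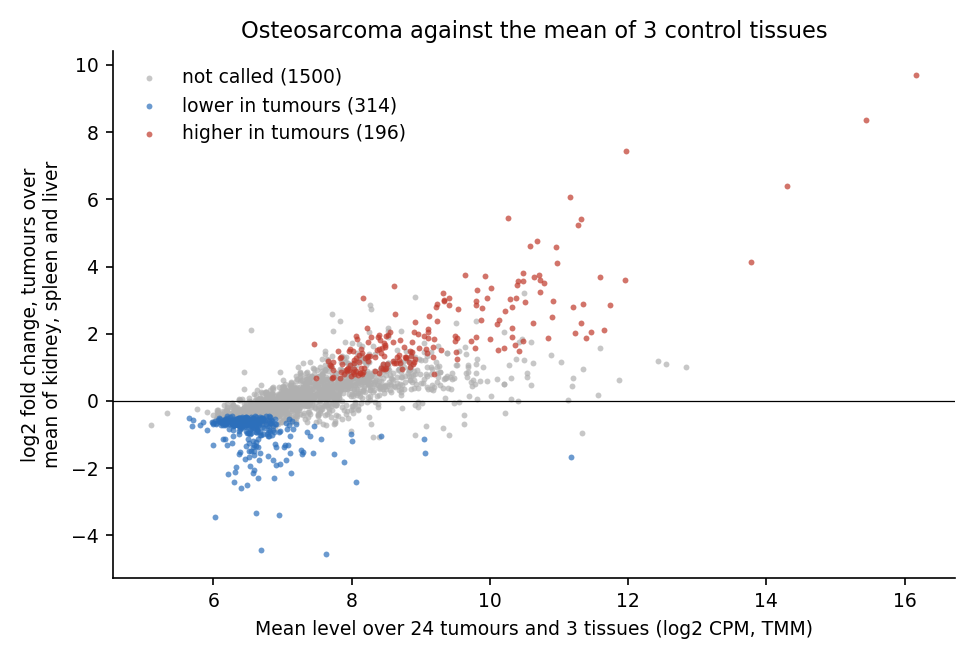
Each point is 1 of 2010 probes. The horizontal axis is its mean level over 24 tumours and 3 tissues (log2 CPM, TMM) and the vertical axis the log2 fold change by edgeR against the mean of kidney, spleen and liver. The 196 probes called higher (red) lie at middle and high levels and the 314 called lower (blue) mostly at low levels. The level is a mean mostly over tumours, so this placement is a description.

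The largest rise was that of RTS0112268. It stood at 14375 CPM in the lowest tumour (706), at a median of 106970 CPM, and at 927460 CPM in the highest tumour (610). It was at 373.5 CPM in kidney, 376.4 CPM in spleen and 254.8 CPM in liver. The tumours and the tissues did not overlap. Its log2 fold change over the mean of the tissues was 9.71 ± 1.90 (SE, n = 24 tumours, edgeR adjusted p = 0.000429). The fitted value is weighted towards the highest tumours, and the plain difference of mean log2 CPM is smaller, with the tumours at 17.15 ± 1.78 (SD, n = 24) and the tissues at a mean of 8.36. In the plain counts RTS0112268 took 37.2% of tumour 610 and 1.86% of tumour 706, against 0.0746% of spleen.

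RTS0112269 followed, with 11484 CPM in the lowest tumour (706), a median of 74991 CPM, and 575180 CPM in the highest (610). Spleen was the highest tissue at 790.7 CPM, with kidney at 297.9 CPM and liver at 245.4 CPM. Its log2 fold change was 8.35 ± 1.54 (SE, edgeR adjusted p = 0.000211), and again every tumour exceeded every tissue. All 68 tumour regions lay above all 12 control regions for both probes. In the no-template control, which held 74 counts in all, 17 counts fell on each of these 2 probes. Its part in the low levels of the control tissues was not tested.

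The largest falls belonged to probes that 2 of the 3 tissues carried strongly. RTS0111944 stood at 23094 CPM in liver and 9344 CPM in kidney but at only 167.8 CPM in spleen. The tumours ran from 86.8 CPM through a median of 138.9 CPM to 248.3 CPM. Its log2 fold change against the mean of the tissues was -4.55 ± 0.24 (SE, edgeR adjusted p = 1.29e-15). Probes named against the mean were picked among calls with 24 of 24 tumours on that side of it. That agreement and the call were thus set by the choice. Against spleen alone only 18 of the 24 tumours were lower.

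RTS0111950 was highest in kidney at 13024 CPM, with 2978 CPM in liver and 101.9 CPM in spleen. In the tumours it ranged from 41.6 CPM through a median of 76.1 CPM to 121.2 CPM. The log2 fold change was -4.44 ± 0.22 (SE, edgeR adjusted p = 9.1e-16). By the same choice 24 of 24 tumours were below the mean, and 22 of 24 lay below spleen. For both probes the tumours overlapped the lowest tissue, so a mean of 3 tissues can be far above the tumours while 1 of the tissues is not.

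A call against the mean does not say that the tumours differ from each tissue, so the direction was read against all 3. Of the 196 higher probes, 196 had a fitted level above each of the 3 tissues. Of the 314 lower probes, 293 (93.3%) were below all 3, 20 below 2 and 1 below 1 only. Over all 2010 probes the mean log2 CPM of the tumours was above every tissue in 586 and below every tissue in 753. A call against the mean in the same fit favours probes outside all 3 tissues, so these shares are a description. Single tumours were less uniform. For a higher probe a median of 23 of the 24 tumours exceeded the highest tissue, and for a lower probe a median of 20 lay under the lowest. All 24 tumours exceeded the highest tissue in 74 of the higher probes, and all 24 lay under the lowest in 6 of the lower ones.

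Spleen was the tissue nearest to the tumours most often in both directions. Among the 196 higher probes spleen was the highest of the 3 tissues in 50.5%, kidney in 31.6% and liver in 17.9%. Over all 2010 probes these were 29.8%, 30.5% and 39.7%. Among the 314 lower probes, where the nearest tissue is the lowest one, spleen was the lowest in 51.9% against 30.7% of all probes. Liver, the farthest tissue most often, was the highest in 182 of these 314. These shares describe the 3 samples at hand and were not tested.

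Tumours and tissues were then compared by range, with no average. In 75 probes (3.73% of 2010) all 24 tumours stood above the highest tissue, and in 6 probes (0.299%) all 24 stood below the lowest. With 20 or more tumours agreeing, the numbers were nearly level, at 231 above and 225 below. The count of probes rose again from 36 at 23 tumours to 75 at 24 on the upper side, but went from 21 to 6 on the lower side. Of the 75 probes, 74 were also called higher against the mean. The exception was RTS0113197, named here after its values were seen, with a log2 fold change of 0.69 (edgeR adjusted p = 0.0577).

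**Figure D2:**
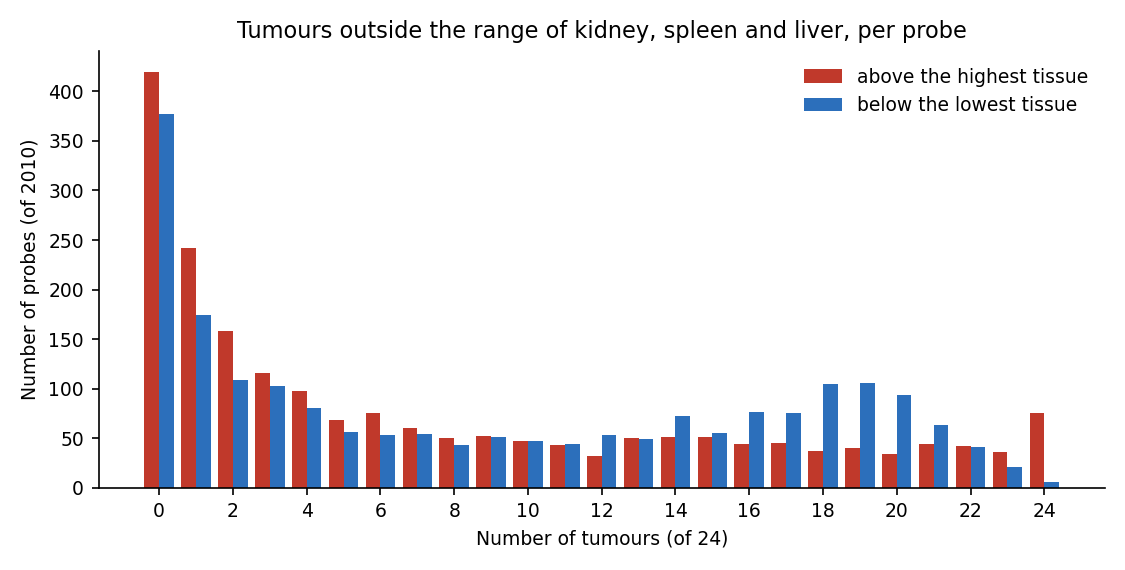
For each number of tumours from 0 to 24 (horizontal axis), the bars count the probes (vertical axis, of 2010) in which exactly that many tumours lay above the highest tissue (red) or below the lowest tissue (blue). At 24 tumours there are 75 probes above and 6 below.

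The 75 probes ranged from small to very large separations. The median tumour exceeded the highest tissue by 1.35-fold to 284.2-fold, with a median of 2.92-fold over the probes. This excess was at least 2-fold in 57 probes, at least 4-fold in 27 and at least 10-fold in 10. Between the lowest tumour and the highest tissue the gap was much narrower, with a median of 0.33 log2 units, and it reached 2-fold in 16 probes. Together the 75 probes held 18.0% (tumour 706) to 74.1% (tumour 610) of the counts of a tumour, but 5.23% in spleen, 2.73% in kidney and 2.24% in liver. They were chosen for lying above the tissues, so these shares show how much of the signal they take and are no test.

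The widest gaps above the tissues belonged again to RTS0112268 and RTS0112269. The lowest tumour stood 5.26 log2 units above the highest tissue for RTS0112268 and 3.86 for RTS0112269. In CPM the highest tumour (610) exceeded the lowest tumour (706) by 64.5-fold for RTS0112268 and by 50.1-fold for RTS0112269. The TMM factors, 0.401 in tumour 610 and 1.29 in tumour 706, widen these ranges. In the plain counts the shares of tumours 610 and 706 were 37.2% and 1.86% for RTS0112268, and 23.1% and 1.48% for RTS0112269. The tumours thus varied widely among themselves in these 2 probes, with an SD of 1.78 and 1.40 log2 units. Over the 75 probes above every tissue the SD of the tumours had a median of 0.70, from 0.26 to 2.43. Its median over all 2010 probes was 0.45.

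The 6 probes below every tissue were only slightly separated. Of these, 5 were among the 503 probes of lowest mean level and 1 was in quartile 3 by level. For these the lowest tissue exceeded the median tumour by 1.21-fold to 2.11-fold, and the gap between the highest tumour and the lowest tissue ran from 0.016 to 0.39 log2 units. RTS0112662 had the widest gap. Its level was 53.8 CPM in the lowest tumour (1801), 80.8 CPM at the median and 130.0 CPM in the highest tumour (204), while kidney had 496.2 CPM, spleen 438.1 CPM and liver 170.3 CPM. The log2 fold change against the mean was -2.06 ± 0.16 (SE, edgeR adjusted p = 3.82e-11).

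RTS0113348 was next, at 43.7 CPM in the lowest tumour (1001), 66.1 CPM at the median and 125.7 CPM in the highest (2202). Kidney stood at 240.1 CPM, spleen at 134.2 CPM and liver at 133.6 CPM, so the highest tumour came within 0.088 log2 units of liver. The log2 fold change against the mean was -1.26 ± 0.19 (SE, edgeR adjusted p = 1.01e-05). In the highest tumours these levels rest on few counts, 20 for RTS0112662 in tumour 204 and 32 for RTS0113348 in tumour 2202. On array 2 alone neither probe had all 24 tumours below the tissues, with gaps of -0.018 and -0.33 log2 units, and RTS0113348 did not on array 1 alone either (-0.022). For RTS0113348 the gap also closed without the regions under 100000 counts (-0.036), with all samples thinned to 73371 counts (-0.144) and without spleen replicate 1 (-0.004).

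**Figure D3:**
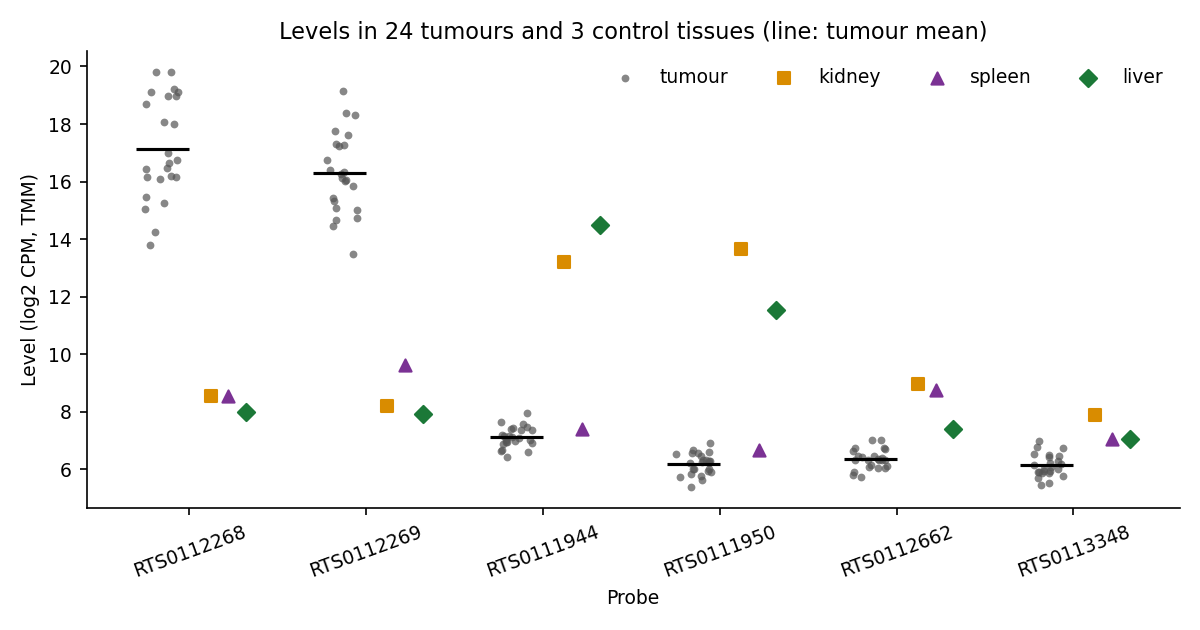
Level (log2 CPM, TMM, vertical axis) of 6 probes in each of 24 tumours (grey points, with a black line at their mean) and in kidney (square), spleen (triangle) and liver (diamond), each summed over its regions. RTS0112268 and RTS0112269 separate every tumour from every tissue, while for RTS0111944 and RTS0111950 spleen lies among the tumours or just above most of them.

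Whether a probe differed from each of the 3 tissues was also tested, by taking the largest of its 3 p-values where all 3 differences had the same sign. By edgeR 0 probes passed in either direction (0% of 2010) after adjustment. At an unadjusted p under 0.05 there were 35 probes higher and 7 lower. With the same rule DESeq2 called 14 higher and 1 lower, limma with voom on the summed samples called 10 higher and 0 lower, and limma with voom on the 80 regions called 38 higher and 0 lower. Of these higher calls, 13 of 14, 10 of 10 and 34 of 38 were among the 75 probes with all 24 tumours above the tissues. Those 75 are 3.73% of all probes. Both lists rest on the same tumours and tissues, so the overlap is no independent support. The edgeR values for RTS0112268 and RTS0112269 were p = 0.00648 and p = 0.00673 before adjustment and 1 after it.

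The counts moved with the scaling. The TMM factor was 1.68 in kidney, 2.00 in spleen and 1.75 in liver, and 0.389 to 1.69 in the tumours. Upper quartile scaling shifted the median log2 fold change of all probes by -0.45 relative to TMM, and library size alone by -0.88. The calls against the mean then became 109 higher and 644 lower, and 55 higher and 939 lower. With RLE, the size factors of DESeq2, they were 206 and 238. The higher probes made up 38.4% of the calls by TMM, 46.4% by RLE, 14.5% by upper quartile and 5.53% by library size. By edgeR, lower calls against the mean outnumbered higher ones under all 4 scalings. This order turned with the test. DESeq2 called 388 higher and 314 lower. Limma with voom called 78 and 56 on the summed samples, and 373 and 254 on regions. By range the direction with more probes turned, from 75 above and 6 below with TMM to 15 above and 178 below under library size alone. No probe was called in opposite directions under any 2 of these 4 scalings. There were 55 probes called higher and 238 called lower under all 4, relative to the shift each brings.

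**Figure D4:**
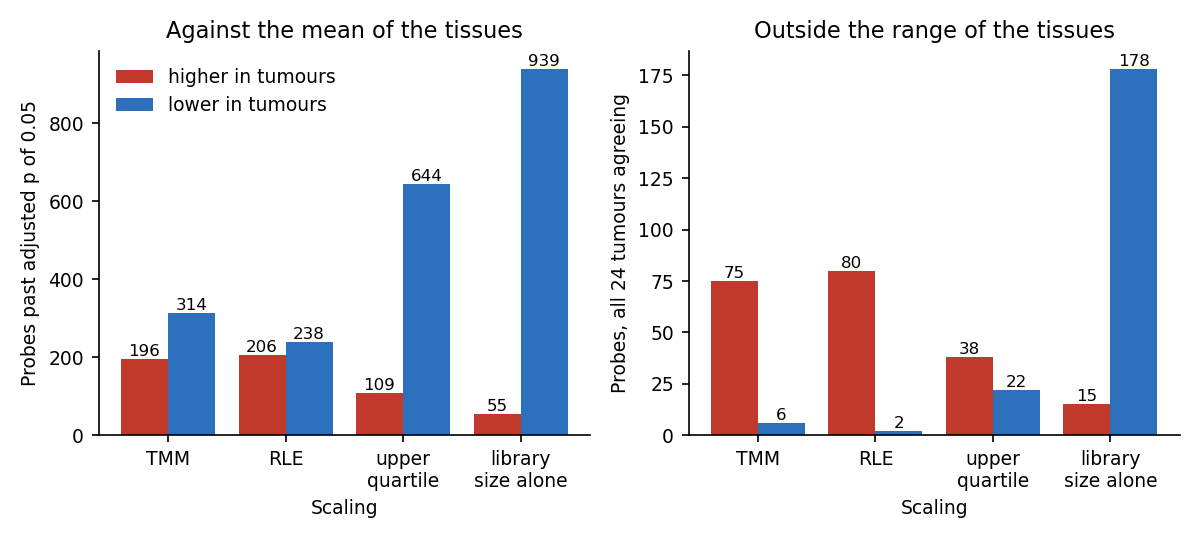
Number of probes (vertical axes, of 2010) under 4 scalings. On the left are probes past an edgeR adjusted p of 0.05 against the mean of the tissues, and on the right probes with all 24 tumours outside the range of the tissues, red for higher and blue for lower in tumours. The split moves from 196 higher and 314 lower with TMM to 55 and 939 with library size alone.

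By range, 15 probes had all 24 tumours above the tissues and 2 had all 24 below under each of the 4 scalings. On array 1 alone there were 59 probes above, and on array 2 alone 54. Of these 40 were shared, which is 67.8% of the first list and 74.1% of the second, and all 40 were among the 75. The 75 were counted on the sum of both arrays, so this last overlap is no further support. On the lower side the lists held 6 and 1 probes and shared 0. The arrays carry the same tumours, so they repeat the measurement and not the animals. In 27 probes all 68 tumour regions exceeded all 12 control regions, while 0 probes had all 68 below. For 14 probes, RTS0112268 and RTS0112269 among them, the tumours stood above the tissues under all 4 scalings, on both arrays and in all 68 regions. These conditions use the same samples and are not separate tests.

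Each of the 3 tissues carried weight in these counts. Without kidney, spleen or liver in turn, the calls against the mean of the other 2 were 82, 99 and 40 higher and 224, 192 and 97 lower. A mean of fewer samples has a larger error, and a range of fewer tissues is easier to leave. By range, 117, 130 and 87 probes were above and 30, 51 and 14 below. Leaving out spleen thus released the most probes on both sides, 130 against 75 and 51 against 6.

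Tumours differed in how many probes they held outside the range of the tissues. At least 2-fold above the highest tissue were 168.8 ± 66.8 probes (SD, n = 24). Tumour 901 had the fewest, 70, and tumour 404 the most, 304. At least 2-fold below the lowest were 33.1 ± 29.4 probes, from 5 in tumour 702 to 113 in tumour 309. Each of the 24 tumours had more probes 2-fold above than 2-fold below. Without the 2-fold margin the order was the other way round for the typical tumour, with medians of 630 above and 803.5 below, so many of the probes below lay close to the lowest tissue.

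**Figure D5:**
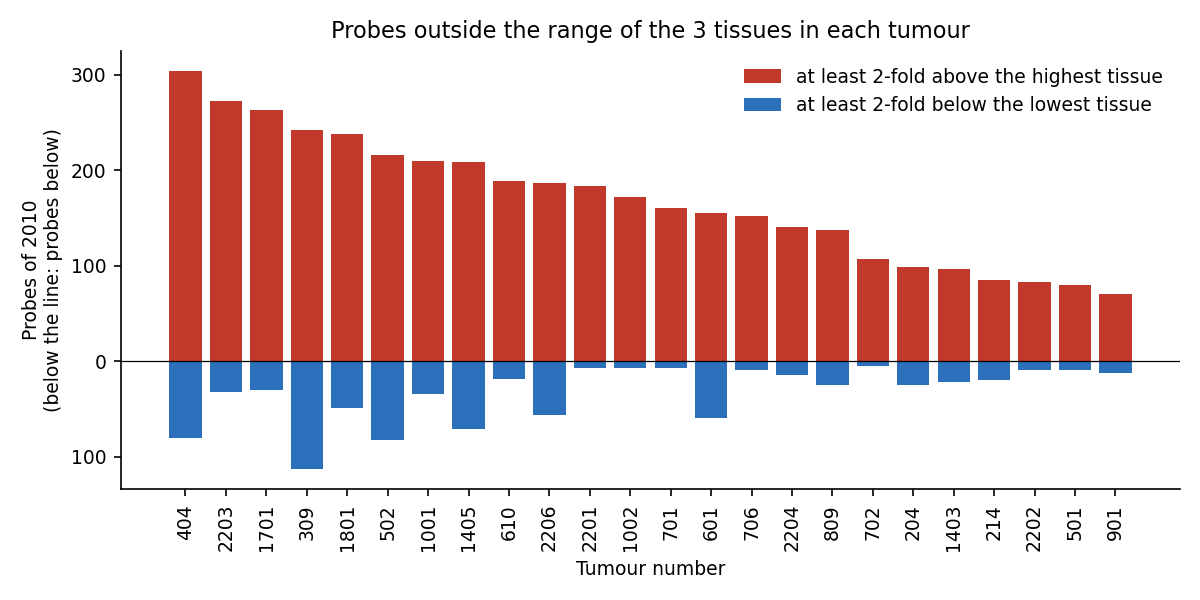
Number of probes of 2010 (vertical axis) in each of 24 tumours (horizontal axis, by tumour number, sorted by the red bars) that lay at least 2-fold above the highest tissue (red, upward) or at least 2-fold below the lowest tissue (blue, drawn downward). The red bars run from 304 in tumour 404 to 70 in tumour 901, and the longest blue bar is 113 in tumour 309.

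The tumours also differed in how far they followed the shared pattern. Of the 196 higher calls, tumour 2201 exceeded the highest tissue in 100% and tumour 901 in 74.0%. Over all 2010 probes tumour 2201 did so in 591 and tumour 901 in 499. Of the 314 lower calls, tumours 404 and 1801 lay under the lowest tissue in 95.5%, but tumour 901 in 45.5% and tumour 2202 in 48.1%. Over all 2010 probes tumours 404 and 1801 did so in 928 and 870, tumour 901 in 515 and tumour 2202 in 520. In 36 probes 23 of 24 tumours were above the tissues, and tumour 214 was the exception in 7 of them, tumours 501 and 901 in 5 each, and tumour 706 in 4. The exceptions were spread over 15 tumours. Total counts were 121670 in tumour 214, 426200 in tumour 501, 289260 in tumour 901 and 557930 in tumour 706, with a median of 534000 over the tumours. The part of depth in these differences was not tested. All 24 tumours took part in the fit, so the shares are a description.

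Tumours with more counts had more probes at least 2-fold above the tissues (Pearson r = 0.618 with the log2 total count, permutation p = 0.00133, adjusted 0.00532 over 4 relations, n = 24). Spearman rho was 0.657 (permutation p = 0.00059, adjusted 0.00236). Leaving out the 2 tumours whose depth was farthest from the median gave r = 0.558. Within arrays r was 0.569 and 0.489. With all samples thinned to 73371 counts r with the original depth was 0.626 (permutation p = 0.00112, adjusted 0.00224). With library size alone it was -0.083 (permutation p = 0.698). The part of depth in this relation was not tested further. The other 3 relations did not pass the threshold with TMM and the 2-fold margin: probes above with the share of the 10 highest probes (r = -0.068, permutation p = 0.75, adjusted 0.866, rho = -0.084), probes below with depth (r = -0.037, permutation p = 0.866, adjusted 0.866, rho = -0.068) and probes below with that share (r = -0.191, permutation p = 0.373, adjusted 0.746, rho = -0.159). Probes below with depth did pass after thinning (r = 0.731, permutation adjusted p = 0.00012), with upper quartile scaling (r = 0.513, adjusted 0.0231), by library size (r = 0.633, adjusted 0.00139) and without the margin (r = 0.620, adjusted 0.0058). By library size the 2 relations with that share also passed (r = -0.907 for probes above and 0.822 for probes below, each with a permutation adjusted p of 2e-05). Without the 2 farthest tumours the 3 r values with TMM were -0.006, -0.111 and -0.110. Within arrays 1 and 2 they were -0.068 and -0.010, -0.396 and -0.455, and -0.286 and 0.116.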

How the data were processed

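The deposited files hold raw counts per probe from the GeoMx NGS pipeline (2.3.4, per the file headers), and probes that a file does not list were taken as 0. In 12 files the unit could not be checked by column, and their values are whole-number counts like the rest. The aligner and any background correction are not given in the sources used here. Counts were summed per tumour and per tissue and tested with edgeR 4.0.16 in R 4.3.3 (filterByExpr, TMM, quasi-likelihood F test on 4 groups, Benjamini-Hochberg over 2010 probes). The filter removed 0 probes. The contrast was tumours minus the mean of the 3 tissues, and the SE was computed from the F statistic. Levels are log2 CPM with a prior count of 2. For every tissue at once, the largest of 3 p-values was adjusted over all probes. Alternatives used DESeq2 1.42.0 and limma 3.58.1. Correlations had 100000 permutations, two-sided. The fit was tested on simulated counts, with the same probe means in all 3 tissues and the same spread for every probe. That check does not cover tissues that differ from each other. Named probes are the 2 largest per direction: against the mean, by log2 fold change among called probes with 24 of 24 tumours on that side, and by range, by the gap between tumours and tissues. The planned marker lists were not tested, since probes have no gene names. The members and lists were chosen with earlier results of these data known. Per-region totals ran from 17711 to 1069118 in tumours and from 92126 to 396058 in controls. Separate tumour numbers were taken as replicates, and the labels do not say that they are separate dogs.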

Additional observations from a re-analysis of the deposited data

Results flagged for a closer look

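The no-template control, which no comparison uses, held 74 counts, above the limit of 3 that a count of 0 allows. RTS0112268 had 17 of them and RTS0112269 had 17, or 23.0% each. Both are the probes with the widest gap between tumours and tissues, and kidney, spleen and liver held 583, 612 and 268 raw counts of RTS0112268 over 4 regions each. Among 21 sets of 4 control regions examined for an outlying region (6 probes and the total count in 3 tissues), 0 had one. A region was flagged where its gap to the next value took most of the range of the 4 (Dixon's ratio). The regions of each tissue were split over the arrays, so a shift between arrays would hardly be flagged. The result therefore does not show that the control regions are alike.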

How the results depend on the processing

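Against the mean of the tissues (196 higher, 314 lower), upper quartile scaling gave 109 and 644 and library size alone 55 and 939. By range (75 above, 6 below), RLE left 2 below, upper quartile scaling gave 38 and 22, and library size alone 15 and 178. DESeq2 called 388 higher and 314 lower against the mean. Limma with voom called 78 higher and 56 lower on summed samples. On regions, with the array as covariate and a random block, it called 373 higher and 254 lower. Against every tissue (0 by edgeR), DESeq2 called 14 higher and 1 lower, and voom 10 higher on summed samples and 38 on regions. By range, array 2 alone gave 1 below, leaving out the 23 regions under 100000 counts (20 tumours left) gave 15 below, and single regions gave 27 above and 0 below. No filter, another prior count, thinning and the 3 tissues as 1 group moved no count by over 1.5 times. The cause of these shifts was not tested.

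Leaving out 1 sample at a time, higher calls against the mean ranged from 40 (without liver) to 223 (without tumour 214) and lower calls from 97 (without liver) to 359 (without tumour 2202). Against every tissue, higher calls stayed at 0 and lower calls ran from 0 to 18 (without spleen, 2 without kidney or liver). By range, probes above ran from 71 (without kidney replicate 2) to 130 (without spleen), and probes below from 4 (without tumour 1405) to 51 (without spleen). The latter were 10 without tumour 204, 809 or 2202. Calls against the mean moved by over 1.5 times only when a whole tissue was left out.

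Among the correlations over 24 tumours, that of probes above with depth was -0.083 with library size alone and 0.401 without the 2-fold margin (permutation p = 0.0535, adjusted 0.0714). Probes above with the share of the 10 highest probes gave 0.082 (upper quartile) and -0.907 (library size, past the threshold). Probes below with depth gave 0.513 (upper quartile), 0.633 (library size), 0.620 (no margin) and 0.731 (thinned), and passed the threshold under all 4, which it did not with TMM and the margin. Probes below with the share gave 0.822 (library size, past the threshold) and 0.420 (thinned, adjusted p = 0.0524). The log2 fold changes of the 6 named probes kept their direction and their call under every alternative run. No paired analysis was possible because the replicate numbers follow accession order and the control tissues carry no tumour number. Low counts limit the probes below the tissues, with 20 and 32 counts behind the highest tumours of the 2 named ones.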
